A study of Homo sapiens with 6 samples.

Results

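MIR149, the precursor gene of miR-149, lies inside the glypican gene GPC1. The probe set of the microRNA gene was lower in HCT116 cells labelled as overexpressing miR-196b than in cells with an empty vector. The probe sets annotated to GPC1, its host gene, differed little between these cells. The microRNA gene, GPC1 and the glypicans GPC2 to GPC6 made 7 genes with 8 probe sets, out of 14884 genes and 16098 probe sets with 1 gene symbol among the 53617 probe sets of the array. These genes were chosen by the measured difference between MIR149 and GPC1 in the same comparison, with the other glypicans added by family. The values and intervals of the 7 genes are therefore given as a description. Where the fit over all probe sets called one of them, the count stands beside the share of all probe sets called, and nothing is read from it.

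HCT116 (spelled HTC116 in the labels) is an established human colorectal carcinoma line, and total RNA was measured on whole-transcript arrays. The first group held 3 arrays of cells stably transduced and labelled as overexpressing miR-196b. The second held 3 control arrays, of cells that had stably received the empty vector. Whether the replicates of a group were transduced separately is not stated in the labels, so the spread between arrays may not cover that between transductions. Values are the authors' deposited log2 expression values, 1 for each probe set and array, and each change is the mean of the arrays labelled miR-196b minus the mean of control.

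Glypicans are proteins held at the outer face of the cell membrane by a glycosylphosphatidylinositol (GPI) anchor. Heparan sulfate chains on the core protein bind growth factors and morphogens of the FGF, WNT, Hedgehog and BMP families, so a glypican can present a ligand to its receptor or keep it away. MicroRNAs that lie in an intron of a coding gene can be cut from the transcript of that gene or from a transcript of their own. The array reads precursor transcripts and gives no level of a mature microRNA.

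The mature microRNAs of the locus are shown with the microRNA that the labels name, because the seed (bases 2 to 8, in capitals) sets which messages a microRNA pairs with. All sequences are RefSeq's, of build GRCh38.p14, 5′ to 3′.
hsa-miR-149-5p: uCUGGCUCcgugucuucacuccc
hsa-miR-149-3p: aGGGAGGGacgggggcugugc
hsa-miR-196b-5p: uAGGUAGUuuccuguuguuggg

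None of the 3 seeds matches another of them. Among 2545 mature microRNAs of the RefSeq table, 0 others carry the seed of miR-149-5p. The seed of miR-149-3p is carried by 2 others, miR-4728-5p and miR-6785-5p, whose genes had no probe set here. The MIR149 hairpin of 89 bases, at chr2:240456001-240456089 on the plus strand, holds the 5p arm at bases 15 to 37 and the 3p arm at bases 56 to 76. Both arms are in capitals below.
MIR149 hairpin: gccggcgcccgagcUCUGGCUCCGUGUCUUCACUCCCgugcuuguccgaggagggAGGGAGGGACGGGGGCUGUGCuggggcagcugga

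The hairpin starts 20338 bases after the start of GPC1, which spans 32414 bases of chromosome 2 (240435663 to 240468076) on the same strand, and ends 11987 bases before the end of that gene. An antisense RNA gene, GPC1-AS1, runs on the opposite strand from position 240449379 to 240456700 and so covers the hairpin. It had no probe set under its own name here, and the strand and the place of the probes within each gene were not used here.

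Before the members, the labels were checked. The genotype label names miR-196b, while the sample titles read miR1966OE. The probe set of MIR196B had 8.21, 7.93 and 8.01 in the arrays labelled miR-196b, against 8.09, 7.91 and 7.91 in control. The groups overlapped, and the log2 change was 0.08 (SE 0.10, limma adjusted p = 0.819). The probe set of MIR196A2, a gene of the same microRNA family, had a mean of 10.6 ± 0.149 in the labelled arrays and 3.06 ± 0.167 in control (log2, SD, n = 3 each). Each direction is therefore that of arrays by their label. Of 7 measured epithelial markers, 6 passed the filter that leaves out the dimmest 40% of named probe sets. Of the 7, 5 were lower and 2 higher, with a median log2 change of -0.09, and none passed the test (smallest limma adjusted p = 0.405). The probe set annotated to KRT18, a keratin, had 11.06 ± 0.0280 in the labelled arrays and 11.29 ± 0.0272 in control (log2, SD, n = 3 each). Its number, 16938654, lies near that of MYD88 (16939127) on chromosome 3, while KRT18 lies on chromosome 12. Whether it reads KRT18 alone was not tested. CDX2, an intestinal transcription factor, had 5.82 ± 0.154 in the labelled arrays and 6.08 ± 0.0906 in control (log2, SD, n = 3 each). The groups did not overlap at these 2 genes, with log2 changes of -0.22 and -0.26. Probe sets whose groups did not overlap made 17.2% of all named probe sets. EPCAM, an epithelial adhesion molecule, was at -0.12 and VIL1, which encodes villin, at 0.06. Of the fibroblast markers LUM (0.18), THY1 (-0.16) and DCN (-0.02) were measured, and of the blood cell markers CSF1R (0.31), CD68 (-0.20) and CD14 (-0.01). The groups did not overlap at LUM and CSF1R, against the same 17.2%, and both lay below the filter. THY1 and CD68 passed it. The part of these differences in the values of the members was not tested.

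MIR149 was lower in every array labelled miR-196b than in any control array. Its log2 values were 5.23, 5.28 and 5.16 in the labelled arrays, against 6.06, 5.87 and 5.98 in control. The groups did not overlap, and the gap between them was wider than the spread within either. The means were 5.22 ± 0.0578 in the labelled arrays and 5.97 ± 0.0911 in control (SD, n = 3 each). The log2 change was -0.75 (SE 0.08) and the 95% interval ran from -0.94 to -0.56, a level 1.68-fold lower in the labelled arrays.

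GPC1, whose product is a glypican found on epithelial and tumour cells and a coreceptor of FGF signalling, had a pair of probe sets. The brighter one, 16893169, had 6.66, 6.40 and 6.58 in the labelled arrays, against 6.71, 6.62 and 6.79 in control. The highest labelled array lay above the lowest control array, so the groups overlapped. Its log2 change was -0.16 (SE 0.09) and the 95% interval ran from -0.39 to 0.06. The other, 16910150, had 5.35, 5.46 and 5.61 in the labelled arrays, against 5.49, 5.60 and 5.87 in control. These groups overlapped too, with a log2 change of -0.18 (SE 0.12) and a 95% interval from -0.46 to 0.10. The probe sets annotated to GPC1 thus gave changes of like size. Since the strand of their probes was not used, whether both read the same transcript is not known here. By their numbers, 16893169 stands near MIR149 (16893189) and DUSP28 (16893191), and 16910150 near OTOS (16910129) and ANKMY1 (16910164). Whether 16910150 reads GPC1 or the opposite strand, where GPC1-AS1 lies, was not tested. The change of MIR149 minus that of the brighter GPC1 probe set was -0.58, a difference for which the pair was chosen. Leaving out each array in turn gave -0.68 to -0.53.

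**Figure D1:**
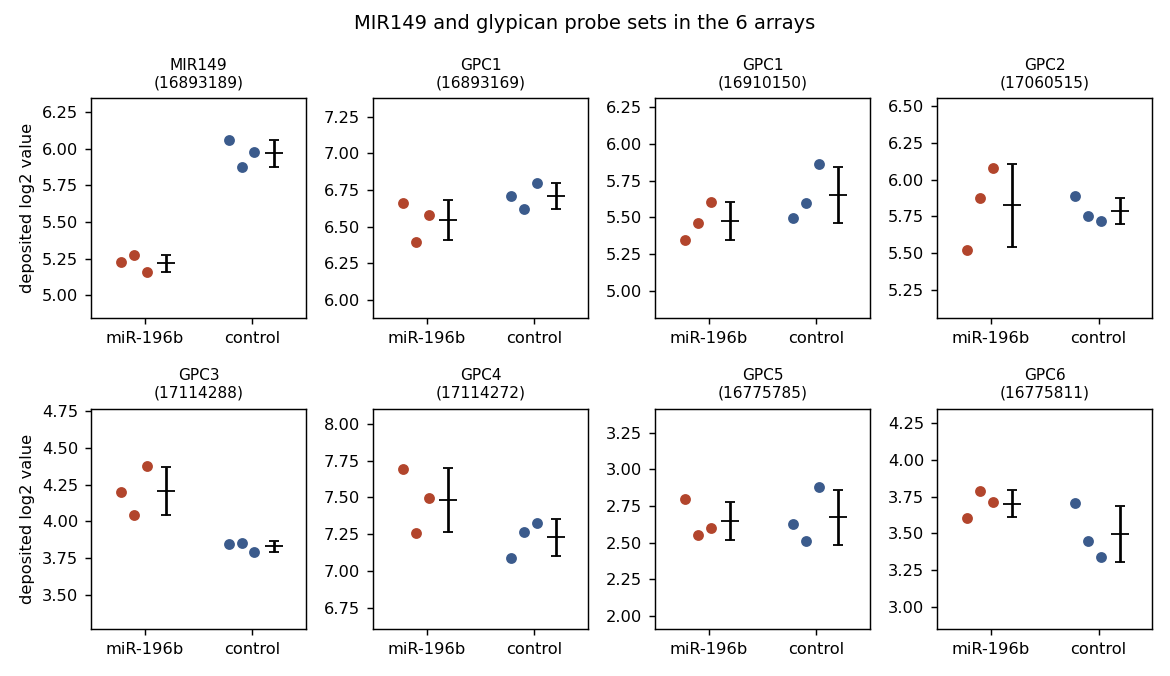
Deposited log2 values of the 8 probe sets of MIR149 and the glypicans, 1 panel each with a span of 1.5 log2 units; points are arrays (labelled miR-196b left, control right) and bars the mean ± SD of 3 arrays. MIR149 and GPC3 are the panels in which the groups do not overlap.

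Of the 8 probe sets, 2 had groups that did not overlap, MIR149 (lower) and GPC3 (higher). Over all 16098 named probe sets this share was 17.2%. In the fit over all of them, 1 of the 8 was called, MIR149 (limma, Benjamini-Hochberg adjusted p below 0.05). Over all named probe sets 9 were called, or 0.0559%. MIR149 was no longer called when any 1 of the 6 arrays was left out, nor with the quantile normalization repeated or with all probe sets of the array. MIR149 was picked for this change, so neither count says anything about the family. Of the 8 probe sets, 5 passed the filter on dim probe sets, and those of GPC3, GPC5 and GPC6 did not.

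The 3 genes that follow GPC1 had log2 changes of -0.27 to -0.17, near that of GPC1. Of the 6 nearest measured neighbours, 3 on each side, 5 were lower and 1 higher, and none passed the test (smallest limma adjusted p = 0.390). ANKMY1, a gene for a protein with ankyrin repeats that lies 556 bases beyond GPC1, had 5.70, 5.69 and 5.66 in the labelled arrays, against 5.98, 5.84 and 6.02 in control. Its groups did not overlap, and its log2 change was -0.27 (SE 0.08) and the 95% interval ran from -0.45 to -0.09 (limma adjusted p = 0.390). DUSP28, a phosphatase gene, had a log2 change of -0.17 (SE 0.10), and RNPEPL1, a gene of the aminopeptidase family, -0.20 (SE 0.10). On the other side, beyond a gap of 295005 bases, OTOS, a gene known from the inner ear, had a log2 change of -0.03, and COPS9, a subunit of the COP9 signalosome, had -0.09. The microRNA gene MIR4786 was at 0.13.

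**Figure D2:**
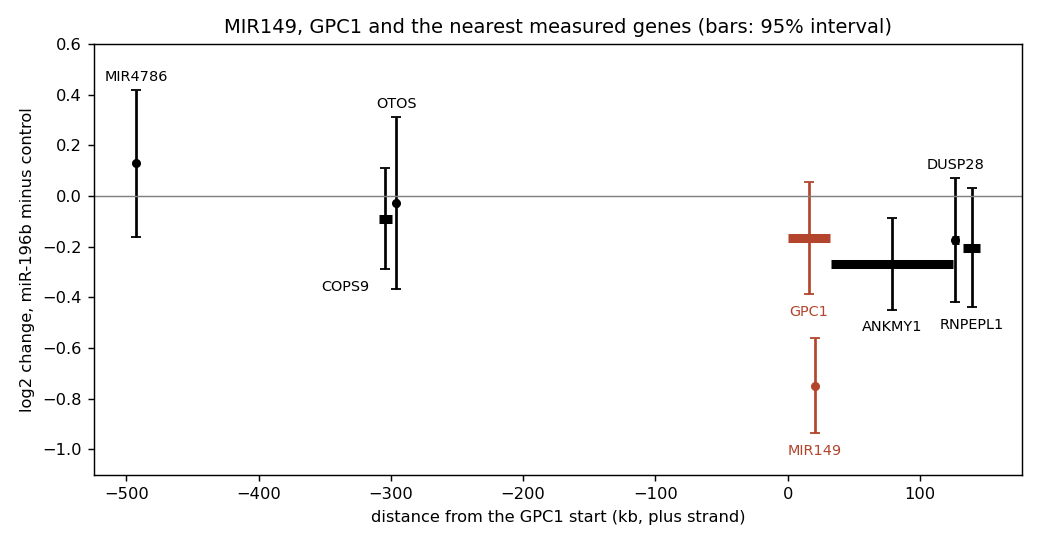
Log2 change (labelled miR-196b minus control) of MIR149, the brighter GPC1 probe set and the 6 nearest measured genes, against distance from the GPC1 start in kb; thick lines are gene spans and thin bars 95% intervals. GPC1 and the 3 genes after it lie between -0.27 and -0.16, and MIR149 lies at -0.75.

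To set the gap between MIR149 and GPC1 beside others, every measured microRNA gene was paired with a measured coding gene of the same strand that spans it in the RefSeq table. Of 884 microRNA genes with a probe set, 244 had such a host. Across the 244 pairs the change of the precursor minus that of the host had a median of -0.03 and ran from -0.74 to 0.83. Its median size was 0.180, against 0.584 for MIR149 and GPC1, and 5 pairs had a larger size. MIR4438 inside SPAG16 had a difference of 0.83, MIR3189 inside GDF15 0.75, MIR887 inside FBXL7 -0.74 and MIR641 inside AKT2 -0.64. In 81 pairs both probe sets passed the filter on dim probe sets, and 2 of these had a larger size than MIR149 and GPC1, MIR3189 with GDF15 and MIR544B with UMPS. The SE of the precursor's change was 0.08 for MIR149, 0.38 for MIR3189 and 0.11 for MIR544B. The pairs share the arrays, and MIR149 was chosen for its gap, so its place in this order is a description.

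**Figure D3:**
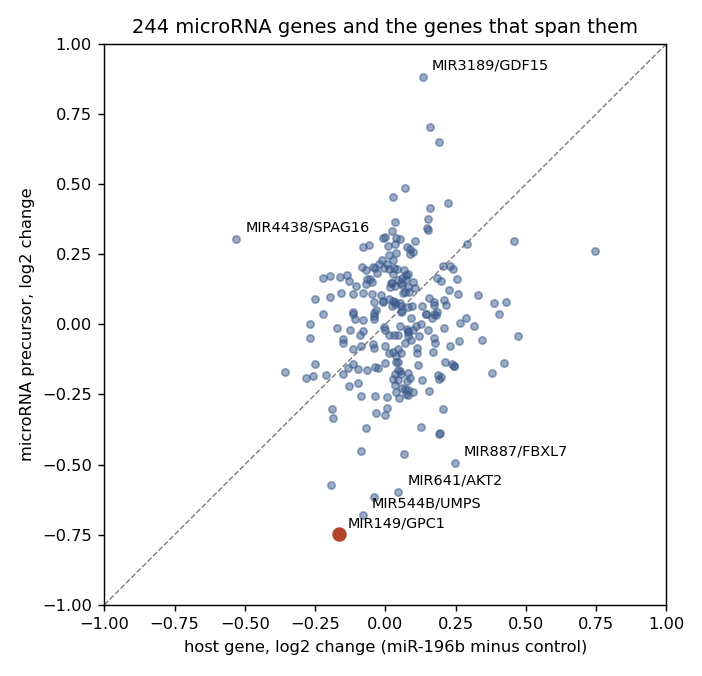
Log2 change of 244 microRNA precursor probe sets against that of the coding gene that spans each; points are pairs, the dashed line marks equal change, and MIR149 with GPC1 is the large point. MIR149 lies lowest of all precursors at -0.75, with GPC1 at -0.16.

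The other glypicans had small changes, and the 7 glypican probe sets gave 4 higher and 3 lower values with a median log2 change of 0.04. Over all named probe sets the median was 0.01. By sequence, the family divides into a branch of GPC1, GPC2, GPC4 and GPC6 and a branch of GPC3 and GPC5.

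GPC4, a glypican of the GPC1 branch that takes part in FGF and WNT signalling, had 7.694, 7.256 and 7.496 in the labelled arrays, against 7.09, 7.27 and 7.33 in control. The groups overlapped through labelled replicate 2. Its log2 change was 0.25 (SE 0.13) and the 95% interval ran from -0.04 to 0.55. GPC6, a gene whose loss causes a skeletal dysplasia in humans, had 3.60, 3.79 and 3.71 in the labelled arrays, against 3.71, 3.45 and 3.34 in control. Its groups overlapped through control replicate 1, with a log2 change of 0.20 and a 95% interval of -0.06 to 0.47.

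GPC2, a glypican known from developing neurons and neuroblastoma, had 5.52, 5.87 and 6.08 in the labelled arrays, against 5.89, 5.75 and 5.72 in control. The labelled arrays spread over more than the whole control group. Its log2 change was 0.04 (SE 0.14) and the 95% interval ran from -0.30 to 0.37, the widest of the members.

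GPC3, an oncofetal glypican of liver tumours that binds Hedgehog ligands and whose loss causes an overgrowth syndrome, had the largest change among the glypicans. Its log2 values were 4.197, 4.047 and 4.374 in the labelled arrays, against 3.85, 3.86 and 3.79 in control. All labelled arrays lay above all control arrays. The log2 change was 0.38 (SE 0.10) and the 95% interval ran from 0.15 to 0.60. The level lay among the dimmest 40% of named probe sets, and background was not measured separately, so a 1.30-fold change of signal is no exact fold of the transcript. GPC5, the other gene of this branch, known for its action on Hedgehog signalling, had 2.80, 2.56 and 2.60 in the labelled arrays, against 2.63, 2.51 and 2.88 in control. Its groups overlapped throughout, with a log2 change of -0.02 and a 95% interval of -0.30 to 0.25.

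**Figure D4:**
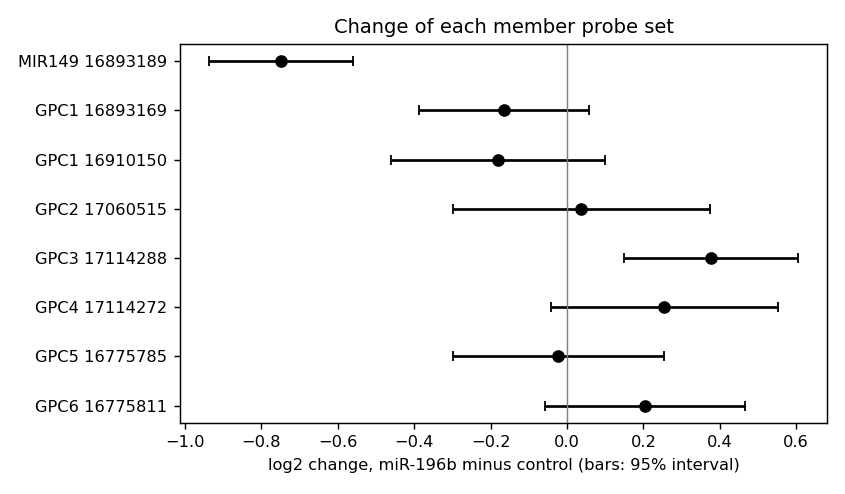
Log2 change (labelled miR-196b minus control) of each probe set of MIR149 and the glypicans, with bars for the 95% interval from the limma fit over 16098 probe sets, n = 3 arrays in each group. MIR149 lies at -0.75, and the glypicans lie between -0.18 and 0.38.

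GPC3 and GPC4 lie next to each other on the X chromosome, 120256 bases apart, and GPC5 and GPC6 on chromosome 13, 349292 bases apart. On the X chromosome, GPC4 and GPC3 had log2 changes of 0.25 and 0.38. Beyond GPC4 lay USP26, a ubiquitin protease gene (0.28), HS6ST2, which encodes a heparan sulfate 6-O-sulfotransferase (0.24), and HS6ST2-AS1 (0.01). Beyond GPC3 lay the microRNA genes MIR363 (-0.02), MIR92A2 (-0.25) and MIR19B2 (0.22). These 6 neighbours thus went both ways, and none passed the test (smallest limma adjusted p = 0.490, USP26). On chromosome 13, GPC5 and GPC6 had -0.02 and 0.20, and their antisense RNA genes GPC5-AS1 and GPC6-AS2 -0.00040 and -0.11. Before GPC5 lay MIR17HG, the host transcript of the miR-17 to miR-92a cluster (-0.01), LINC00379 (0.01) and LINC00410 (-0.03). After GPC6 lay GPR180 (0.07), SOX21, a transcription factor gene (-0.03), and CLDN10, a claudin gene (0.25, groups not overlapping, limma adjusted p = 0.486). Around GPC2 on chromosome 7, GAL3ST4 had -0.09, MIR4658 -0.05, LAMTOR4 -0.07, STAG3 0.01, PVRIG -0.02 and SPDYE3 0.19. GPC5-AS1, which overlaps GPC5, is left out of the count that follows, while GPC6-AS2 is in it. Over all glypican loci, 25 distinct neighbours that are no members ran from -0.27 to 0.28 with a median of -0.02, and none was called. Their groups did not overlap at 4 of the 25 (ANKMY1, DUSP28, USP26 and CLDN10), against 17.2% of all named probe sets.

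The promoter window of GPC1, 250 bases before to 50 after the annotated start, is shown because a transcript through MIR149 can begin there. It lies at chr2:240435413-240435712 on the plus strand of GRCh38.p14. Capitals mark the GC box, GGGCGG, searched on both strands, where neighbouring boxes may share a base.
GPC1 promoter window: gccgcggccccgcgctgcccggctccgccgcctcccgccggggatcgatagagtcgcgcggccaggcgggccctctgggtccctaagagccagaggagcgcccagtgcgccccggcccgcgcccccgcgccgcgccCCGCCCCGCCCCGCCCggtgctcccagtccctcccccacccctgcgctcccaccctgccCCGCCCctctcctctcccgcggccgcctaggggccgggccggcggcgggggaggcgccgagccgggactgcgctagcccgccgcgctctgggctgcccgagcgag

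Windows at the gene start were found for 4 of the 6 glypicans. None was found for GPC3, and that of GPC6 does not lie at the start of the gene in the gene table, so it was not used. GPC1's had the highest GC content of the 4, at 83.3%, against a median of 58.7% over all 35116 windows in the table. The others had 74.7% (GPC4), 66.0% (GPC2) and 65.0% (GPC5). The GC box occurred 4 times in the GPC1 window, 3 times each in those of GPC2 and GPC5 and 2 times in that of GPC4, and 45.0% of all windows hold at least 1. The letters TATAAA, on either strand, occurred in the GPC5 window alone among the 4, and in 11.5% of all windows. The letters CCAAT, on either strand, occurred in the GPC2 window alone, and in 34.6% of all windows. These are matches of letters and say nothing of binding.

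The profiles most like that of MIR149 were sought over the 6 arrays, each profile centred on its own mean, by the root mean square difference. The 5 nearest named probe sets were HOXB7, a homeobox gene named in the title of the series (0.0675 log2 units), C1GALT1C1L (0.0951), DKK1, a secreted WNT antagonist (0.102), ZNF750 (0.111) and a probe set of the microRNA gene MIR130B (0.117). All 5 were lower in the labelled arrays, by 0.57 to 0.83 on the log2 scale, and DKK1 was called (limma adjusted p = 0.0233). A search for profiles near that of MIR149 returns genes with a like change, so this direction and size follow from the search. MIR130B had another, brighter probe set with a log2 change of -0.21. For the brighter GPC1 probe set, the 5 nearest were KLHL34 (0.0163), GPX3 (0.0205), TRIM40 (0.0230), ELFN2 (0.0329) and SART1 (0.0342). Their changes lay between -0.19 and -0.13, which again follows from the search, and none was called.

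The genes that build, modify and release heparan sulfate, and the partners of glypicans, gave no call. Of 102 measured genes in 10 lists, 58 were higher and 44 lower, the median change was 0.02 (log2), and 0 passed the test over all named probe sets. At an unadjusted p below 0.05, 14 of the 102 passed, against 9.87% of all named probe sets. The lists hold 152 genes, and the others were not analysed here. With a trended and robust variance prior 4 passed, all higher: BMP4, DUSP6, ETV1 and SPRY4. Under that prior 0.565% of all named probe sets passed, 56 higher and 35 lower, and those higher made 0.348%.

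Chain assembly showed small values. Of 8 measured genes for the linker and polymerases, 5 were higher and 3 lower. XYLT1 and XYLT2, which start the chain on the core protein, had log2 changes of 0.25 and 0.19, while EXT1 and EXT2, which form the polymerase, had 0.03 and -0.00040. EXTL1 was at -0.10 and PXYLP1, a phosphatase acting on the linker, at 0.04. Of 15 genes for sulfation and epimerisation, 6 were higher and 9 lower with a median of -0.06. HS6ST3 had -0.36, HS6ST2 0.24, NDST3 -0.23 and HS3ST5 -0.18, and the 4 genes are sulfotransferases. The adjusted p over these 23 genes was 0.504 at the lowest.

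Among genes that trim chains or free glypicans from the membrane, GPLD1, a phospholipase that cuts GPI anchors, had 5.10, 5.37 and 5.45 in the labelled arrays, against 4.71, 5.05 and 5.01 in control. The groups did not overlap, with a log2 change of 0.38 (SE 0.13, limma adjusted p = 0.436). NOTUM, a secreted enzyme that removes the lipid of WNT proteins and also acts on glypicans, had 0.12 (SE 0.19), HPSE, the heparanase, -0.08, its relative HPSE2 -0.22 and the protease gene ADAM17 0.06. Of 8 genes measured, 5 were higher and 3 lower. For the GPI anchor, 5 of 28 genes were measured, and PGAP2 (-0.14), PGAP1 (0.12), GPAA1 (0.07) and DPM3 (-0.10) had the smallest p-values.

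Other proteins that carry heparan sulfate or other glycosaminoglycan chains were lower in 5 of 7 cases, with a median of -0.06. NRP1, a coreceptor of VEGF, had a log2 change of -0.21, AGRN, the basement membrane protein agrin, -0.20, SDC2, a syndecan, -0.31, and HSPG2, which encodes perlecan, 0.10. None passed the test (smallest limma adjusted p = 0.504).

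Of 17 ligands that bind heparan sulfate or glypicans, 11 were higher and 6 lower, with a median of 0.03. BMP4 had a log2 change of 0.31 (SE 0.07, limma adjusted p = 0.331), FGF19, an FGF that acts through FGFR4, 0.47 (SE 0.14, adjusted p = 0.407), VEGFA 0.19 and SLIT2, a guidance cue, 0.16. Of 20 receptors and coreceptors, 13 were higher and 7 lower, with a median of 0.07. FZD7, a WNT receptor, had 0.38 (SE 0.09, limma adjusted p = 0.357), PTCH1, the Hedgehog receptor, 0.23, GAS1, a Hedgehog coreceptor, -0.44 and LRP1 0.21.

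Genes of Hedgehog signalling and output genes of FGF signalling were looked at next. Of 5 Hedgehog genes, 3 were higher and 2 lower, with PTCH1 at 0.23, GLI3 at -0.30, GLI2 at -0.18 and GLI1 at 0.02. Of 8 genes induced by FGF and MAPK signalling, 7 were higher and 1 lower, and the median change was 0.25 (log2). DUSP6, a phosphatase that acts back on the pathway, had 10.7, 10.7 and 10.9 in the labelled arrays, against 10.3, 10.3 and 10.3 in control. SPRY4, a feedback inhibitor, had 9.88, 9.82 and 10.01 in the labelled arrays, against 9.43, 9.49 and 9.40 in control. The transcription factor genes ETV1 and ETV5 had log2 changes of 0.41 and 0.26. The groups did not overlap at 6 of the 8 genes, against 17.2% of all named probe sets, and none passed the test (smallest limma adjusted p = 0.251). The lists were chosen with earlier results of these data known, so nothing is read from this count.

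**Figure D5:**
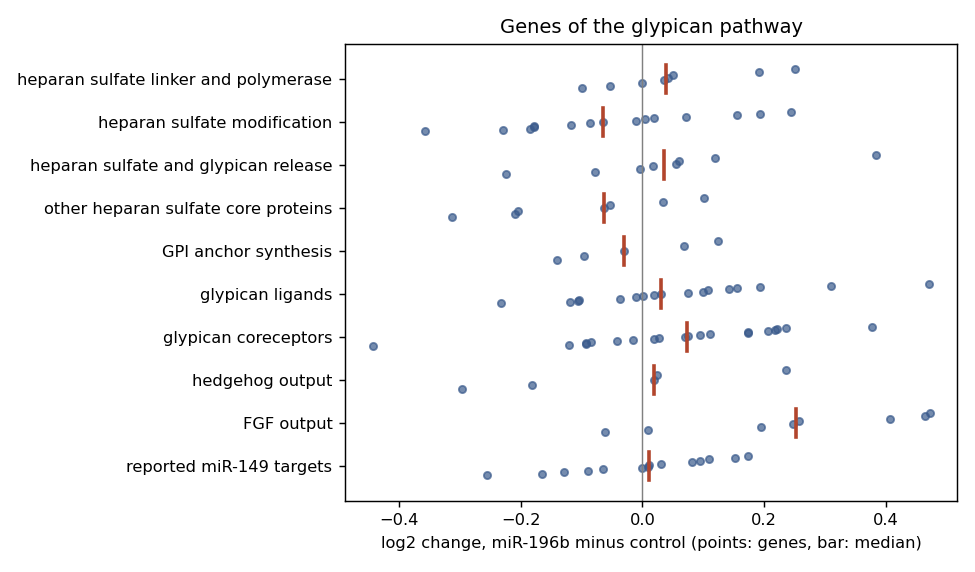
Log2 change (labelled miR-196b minus control) of the genes of 10 lists around glypicans, 1 point for each gene at its brightest probe set, with a bar at the median of each list. The list of FGF output genes has its median at 0.25, and the other 9 have theirs between -0.06 and 0.07.

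Genes reported elsewhere as targets of miR-149 did not move one way. Of 20 in the list 14 were measured, 8 higher and 6 lower, the median change was 0.01 (log2), and 0 passed the test. GPC1 is itself among them. ZBTB2, a zinc finger gene, had -0.26 (SE 0.10, limma adjusted p = 0.482), MYD88, an adaptor of innate immune receptors, 0.15, and FGFR1 0.17. FOXM1 and AKT1, also on the list, had 0.01 and -0.00050. Their values are messenger levels and do not show what the mature microRNA did.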

How the data were processed

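The authors deposited 1 table of log2 expression values, 1 for each probe set and array. Per the submitters' processing notes, the tools were RMA and Partek 6.6; their roles and order are not given there. RMA corrects background and normalizes between arrays by quantiles, so a shift of all genes cannot be seen. RMA works on the log2 scale, from which the base is inferred. The 6 array medians were 4.34 to 4.37. The genome build behind the probe sets is not given in the sources used here.

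The platform annotation paired 16098 of 53617 probe sets with 1 symbol. Those 16098 were fitted with lmFit and eBayes in limma 3.58.1 (R 4.3.3), with no covariate and no filter. The adjusted p is Benjamini-Hochberg's over all 16098 and a call is an adjusted p below 0.05. Intervals are 95% intervals of that fit. Its 4 residual degrees of freedom gained 3.23 from the prior. An exact permutation test of 3 against 3 arrays cannot go below p = 0.1. The number of arrays limits the precision, and batches by slide or scan could not be tested. The fit was tested on simulated data.

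For lists, neighbours and pairs, the probe set of a gene with the highest mean was used. The members and the lists were chosen with earlier results of these data known. All members are named. Of each list the genes past the test are named, otherwise up to 4 with the smallest p. The 3 nearest measured genes on each side, the 5 nearest profiles and the 4 pairs with the largest difference are named for the loci and profiles described. Genes named beyond this rule, such as EXT1, EXT2, NOTUM, FOXM1, AKT1, MIR196A2 and the pair of MIR544B and UMPS, were chosen after their values were seen. Alternatives were a filter on dim probe sets, another variance prior, other scalings, a block, each array left out, all probe sets, and averaging the probe sets of each gene.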

Additional observations from a re-analysis of the deposited data

How the results depend on the processing

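The log2 change of MIR149 ran from -0.80 to -0.71 over 12 alternatives and those of GPC1 from -0.22 to -0.09 (16893169) and from -0.26 to -0.07 (16910150). Each kept its sign. GPC3 (0.29 to 0.46), GPC4 (0.15 to 0.37) and GPC6 (0.12 to 0.31) kept theirs too, while GPC2 (-0.09 to 0.19) and GPC5 (-0.10 to 0.08) did not. The filter on dim probe sets, the variance prior, the replicate block and the use of all probe sets leave a change as it was by construction. At MIR149 and GPC3, where the groups did not overlap, leaving out an array could not turn the sign. The count of members called was 1 in the fit reported. It was 0 with quantile normalization repeated, with the replicate block and with all probe sets of the array, each with all 6 arrays. It was also 0 when each array was left out in turn. The call of MIR149, with a limma adjusted p of 0.048 in the fit reported, held in 3 of 12 alternatives. Those were the fit without the dimmest 40%, the trended and robust prior, and each array centred on its median. The count of named probe sets called, 9 in the fit reported, was 22 without the dimmest 40% of probe sets, 91 with a trended and robust variance prior, 1 with the replicate block, 2 with all probe sets of the array, and 2 to 3 with an array left out. The 0 calls in the pathway lists became 4 with the trended and robust prior. Whether arrays with the same replicate number share more than that number is not known here. Their deviations from the group means correlated at 0.009 to 0.037, against -0.052 to 0.02 for arrays of different number. Such small values cannot show whether the block pairs anything.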
